A study of Mus musculus with 207 samples.

Results

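Beta cells of mouse islets were divided by their level of Ucn3, the gene of urocortin 3, into Ucn3-high cells with 500 TPM or above and Ucn3-low cells with under 100 TPM, within each age. TPM is a transcript level scaled for gene length, with the same total of 1000000 in every cell. Of 207 cells, 94 were Ucn3-high and 44 were Ucn3-low, so that 138 cells were compared, and the 69 cells with values between the limits are called intermediate. The cells came from pancreatic islets of male mice of 26 months (Old, 69 cells) and of 3 months (Young, 138 cells), and the labels give no strain, allele, treatment or animal. Old cells comprised 37 Ucn3-high, 18 intermediate and 14 Ucn3-low cells, and Young cells comprised 57, 51 and 30 cells of these classes in the same order. Single cells were captured on a microfluidic chip, and their RNA was copied and amplified there before sequencing. Since no animal is named, each age counts as 1 sample, cells are not replicates, and the classes were cut from a measured value: every difference below is a description of these cells, with the SD between cells and with no test.

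Urocortin 3 is a peptide of the corticotropin-releasing factor family. In mouse islets it is made by beta cells, is stored and released with insulin, and acts through the receptor Crhr2 on delta cells, which release somatostatin in return. Mouse beta cells gain Ucn3 as they mature after birth, alongside the machinery that couples glucose uptake to insulin release, and they lose it in some forms of diabetes, so that Ucn3 is widely used as a marker of mature beta cells.

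Ucn3 lies on chromosome 13 of GRCm38 (3940688 to 3945349, minus strand). The 250 bases before the RefSeq start (GRCm38.p6) are printed for Ucn3 and for 3 genes whose mean was higher in Ucn3-high cells at both ages, the glucose transporter gene Slc2a2, the glucose-6-phosphatase gene G6pc2 and the amylin gene Iapp. These windows lie at chr13:3945350-3945599 (minus strand), chr3:28697653-28697902 (plus strand), chr2:69210823-69211072 (plus strand) and chr6:142298175-142298424 (plus strand). Capitals mark TAAT on either strand, the core that homeodomain proteins such as Pdx1 and Nkx6-1 recognise.
Ucn3: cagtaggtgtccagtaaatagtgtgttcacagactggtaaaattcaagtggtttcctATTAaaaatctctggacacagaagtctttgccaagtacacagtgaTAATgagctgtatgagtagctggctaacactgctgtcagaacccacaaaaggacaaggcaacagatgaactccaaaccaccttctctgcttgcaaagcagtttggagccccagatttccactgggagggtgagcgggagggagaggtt
Slc2a2: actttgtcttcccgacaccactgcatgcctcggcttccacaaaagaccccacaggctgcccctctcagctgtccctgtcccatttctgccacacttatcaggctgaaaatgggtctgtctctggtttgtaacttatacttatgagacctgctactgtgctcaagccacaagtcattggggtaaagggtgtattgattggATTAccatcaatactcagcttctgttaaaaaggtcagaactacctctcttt
G6pc2: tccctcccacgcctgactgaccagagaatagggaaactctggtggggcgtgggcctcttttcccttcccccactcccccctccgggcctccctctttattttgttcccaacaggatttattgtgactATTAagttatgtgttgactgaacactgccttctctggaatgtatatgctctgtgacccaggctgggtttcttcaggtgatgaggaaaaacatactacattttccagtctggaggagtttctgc
Iapp: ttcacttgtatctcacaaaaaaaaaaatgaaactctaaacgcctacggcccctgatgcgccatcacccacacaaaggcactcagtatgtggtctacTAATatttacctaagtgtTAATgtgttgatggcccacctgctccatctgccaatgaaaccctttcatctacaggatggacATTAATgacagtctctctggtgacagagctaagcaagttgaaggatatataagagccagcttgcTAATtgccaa
TAAT occurred at 2 places before Ucn3, at 1 place before Slc2a2, at 1 before G6pc2 and at 5 before Iapp, of which 2 overlap. Of 32841 RefSeq promoter windows of this length, 54.9% held TAAT. The E-box, which basic helix-loop-helix proteins bind, was searched as CANNTG, also on both strands. It occurred at 2, 1, 1 and 3 places in the windows in the order printed and in 66.2% of all windows. TGCTGA, a 6-base stretch of the Maf recognition element, was on either strand of none of the 4 windows and in 16.1% of all windows.

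Ucn3 was at 0 TPM in no cell. It ranged from 674 to 5061 TPM in Old Ucn3-high cells (median 1080) and from 0.487 to 87.4 TPM in Old Ucn3-low cells (median 49.2). In Young cells it ranged from 502 to 3489 TPM in the Ucn3-high class (median 824) and from 2.68 to 96.7 TPM in the Ucn3-low class (median 23.2). The upper limit fell into a gap among Old cells, whose nearest cells had 674 and 496 TPM, and into a crowded range among Young cells, whose nearest had 502 and 498 TPM; 2 Old and 17 Young cells lay within 20% of it. The lower limit separated 121 from 87.4 TPM in Old cells and 110 from 96.7 TPM in Young cells. Ucn3-high cells made up 53.6% of Old cells (95% Clopper-Pearson interval 41.2% to 65.7%) and 41.3% of Young cells (33.0% to 50.0%). Ucn3-low cells made up 20.3% of Old cells (11.6% to 31.7%) and 21.7% of Young cells (15.2% to 29.6%). These intervals cover counting error only.

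**Figure D1:**
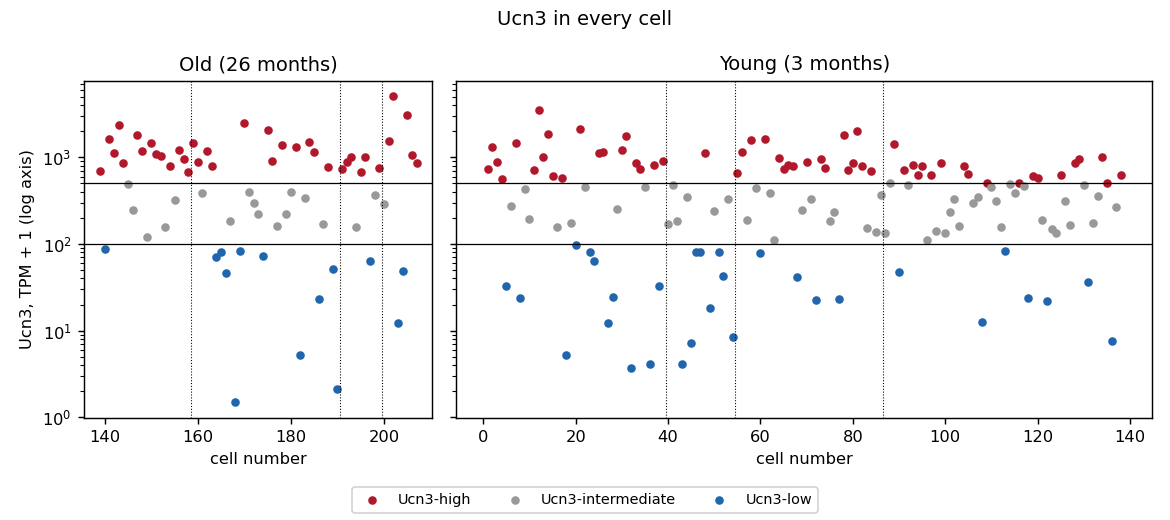
Ucn3 in every cell, as TPM + 1 on a log axis, against the cell number of the sample titles; the left panel holds the 69 Old cells, the right panel the 138 Young cells, horizontal lines mark 500 and 100 TPM, and dotted lines mark the bounds of runs of consecutive cells. Of 14 Old Ucn3-low cells, 10 are among cells 159 to 190. Of 30 Young ones, 11 are among the 39 cells 1 to 39 and 8 among the 15 cells 40 to 54.

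The classes were spread unevenly over the cell numbers. Detected genes, mitochondrial RNA and nuclear noncoding RNA shifted in steps along the numbers and divided each age into 4 runs of consecutive cells. Whether a run is a chip, a day or an animal is not stated. Of the 14 Old Ucn3-low cells, 10 were among cells 159 to 190, where 37.5% of cells were Ucn3-high, against 62.5% to 70% in the other Old runs. Among Young cells 40 to 54, 8 of 15 cells were Ucn3-low and 1 was Ucn3-high, and the median number of detected genes (TPM 1 or above) was 2320 there, against 3944 to 5104.5 in the other Young runs. Fewer genes were detected in Ucn3-low cells at both ages: medians were 4361 in Old Ucn3-high and 3267 in Old Ucn3-low cells, and 4304 in Young Ucn3-high and 3947.5 in Young Ucn3-low cells. TPM holds no read depth, so detected genes are the only sign of it; the log2 ratios were also computed within bins of detected genes, and are given beside some of the results.

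All cells of both classes carried insulin. Ins1 and Ins2 together held a median of 50.3% of the TPM in Old Ucn3-high and 54.9% in Old Ucn3-low cells, and 54.0% in Young Ucn3-high and 55.6% in Young Ucn3-low cells; the lowest value in any cell of the classes was 15.7%. Mafa, a transcription factor gene of mature beta cells, was the defining marker with almost no values above 0. It reached a mean of 0.737 TPM in Old Ucn3-high cells, where 1 of 37 cells had TPM 1 or above. It was listed at 0 in every Old Ucn3-low cell and in every Young cell of both classes. Whether the cells lacked Mafa RNA or the measurement missed it was not tested. Somatostatin or peptide YY reached 1000 TPM in 2 of 37 Old Ucn3-high and 2 of 14 Old Ucn3-low cells, and in none of the 57 Young Ucn3-high and 30 Young Ucn3-low cells (taking 3 cells of the total as the limit, a count of 0 allows shares of up to 5.26% and 10% of such cells). Summed markers of alpha cells had medians of 1068 TPM in Old Ucn3-high and 918 TPM in Old Ucn3-low cells, and of 1181 TPM in Young Ucn3-high and 843 TPM in Young Ucn3-low cells. Those of delta cells had medians of 112 and 74.3 TPM in Old Ucn3-high and Ucn3-low cells and of 76.3 and 160 TPM in Young Ucn3-high and Ucn3-low cells. Those of PP cells had 61.0 and 37.1 TPM in the same Old classes and 22.6 and 31.0 TPM in the Young ones, and those of epsilon cells 0 TPM in each. Summed endothelial markers reached at most 141 TPM in any cell of the classes. Summed markers of acinar cells stayed at or below 86.2 TPM in every cell, and erythroid markers were at 0 in both classes. Markers of stellate cells and of Schwann cells summed to 601 and 651 TPM at most, both in Old Ucn3-low cells, within the 2 classes, and duct markers, several of which beta cells also express, reached 5297 TPM in an Old Ucn3-high cell.

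Macrophage markers set a few cells apart. The sum of 8 such genes (Ptprc, Cd68, Lyz2, C1qa, C1qb, C1qc, Tyrobp and Fcer1g) was between 6398 and 22240 TPM in 6 cells and at most 234 TPM in all others. The 6 cells were 1 of 37 Old Ucn3-high cells, none of 14 Old Ucn3-low cells, none of 57 Young Ucn3-high cells, 4 of 30 Young Ucn3-low cells (13.3%, interval 3.76% to 30.7%) and 1 of 51 Young intermediate cells. The 4 Young Ucn3-low cells held 2.68 to 21.7 TPM of Ucn3 and 15.7% to 49.9% insulin. Results below are for all cells of a class, with the value without these cells, called macrophage-marked here, where it differs in a way that matters.

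Across all genes, Ucn3-high cells held more of many transcripts than Ucn3-low cells. The log2 ratio used throughout is log2 of (mean TPM in Ucn3-high cells + 1) over (mean TPM in Ucn3-low cells + 1), and a gene counts as higher or lower at 1.5-fold with the same direction of the mean of log2(TPM + 1), among genes with a mean of 10 TPM in either class. By this rule 44.3% of 4831 genes were higher and 17.5% were lower in Old Ucn3-high cells, and 27.4% of 5128 genes were higher and 20.3% were lower in Young Ucn3-high cells. The median log2 ratio of all genes was 0.42 in Old and 0.05 in Young cells, and within runs it was 0.27 and 0.16 for these ages. Only cells 159 to 190 could be compared within runs in Old cells, so every Old value within runs is that of 1 run. Within bins of detected genes the median of all genes was 0.16 at both ages. Without cells 40 to 54 the Young median was -0.16, so its direction was not steady. Without macrophage-marked cells, 43% were higher and 18.3% lower in Old, and 30.6% were higher and 18% lower in Young Ucn3-high cells. With counts this large from cells that vary widely, a list of genes is read against these shares and not against 0. Intermediate cells had a mean between those of the 2 classes for 52.5% of the genes called in Old cells and for 61.8% in Young cells.

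Several genes of beta cell maturity were higher in Ucn3-high cells, as were many other genes. Of 18 measured Old members 9 were higher and 4 lower, where 44.3% and 17.5% of all genes were. Their median log2 ratio was 0.45, close to the 0.42 of all genes, and within runs it was 0.13, against 0.27 for all genes. Of 20 measured Young members 8 were higher and none lower, where 27.4% and 20.3% of all genes were. Their median was 0.49 against 0.05 for all genes. Without macrophage-marked cells 7 were higher and the median was 0.34. Within runs the Young median was 0.35, against 0.16 for all genes, and in Young cells 87 to 138 it was 0.05, against 0.15. Slc2a2, G6pc2 and Ppp1r1a passed 1.5-fold at both ages, Ppp1r1a in Young cells only with the macrophage-marked cells included. Of all genes measured at both ages, 14.1% were higher at both. Insulin itself differed little: the log2 ratios of Ins1 and Ins2 were 0.08 and -0.10 in Old cells and 0.05 and -0.03 in Young cells.

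Slc2a2, the glucose transporter GLUT2 of mouse beta cells, ranged from 0.125 to 872 TPM in Old Ucn3-high cells (median 111) and from 0 to 118 TPM in Old Ucn3-low cells (median 24.8). In Young cells it ranged from 0 to 817 TPM in Ucn3-high cells (median 119) and from 0 to 452 TPM in Ucn3-low cells (median 20.4). The classes overlapped, but 13 of 14 Old and 24 of 30 Young Ucn3-low cells lay below the median of the Ucn3-high cells of their age. The 24 include all 8 Ucn3-low cells of cells 40 to 54, where Slc2a2 was at 0 to 12.3 TPM. It was at 0.155 TPM in the 1 Ucn3-high cell there. Its mean was 195 ± 214 TPM in Old Ucn3-high and 36.2 ± 38.8 TPM in Old Ucn3-low cells, a log2 ratio of 2.40, and 184 ± 206 TPM in Young Ucn3-high and 67.1 ± 101 TPM in Young Ucn3-low cells, a log2 ratio of 1.44 (SD over 37, 14, 57 and 30 cells). Within runs the log2 ratios were 1.59 for Old and 0.92 for Young cells, and in Young cells 87 to 138 the mean was lower in Ucn3-high cells (117 against 135 TPM). The difference of mean log2 values was -0.01 in Young cells 1 to 39 and -0.87 in cells 87 to 138. It was 2.43 in cells 55 to 86, which hold 4 Ucn3-low cells.

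G6pc2 encodes the islet glucose-6-phosphatase that turns glucose 6-phosphate back into glucose. It ranged from 27.8 to 2758 TPM in Old Ucn3-high cells (median 863) and from 4.49 to 2303 TPM in Old Ucn3-low cells (median 247). Young Ucn3-high cells had 154 to 5438 TPM (median 1086) and Young Ucn3-low cells had 16.3 to 3076 TPM (median 573). The classes overlapped over most of their range, and 2 Old and 4 Young Ucn3-low cells lay below every Ucn3-high cell of their age. The log2 ratio was 0.60 in Old and 0.73 in Young cells. It was above 0 in all 4 runs that could be compared, from 0.33 to 0.94, but it became -0.15 in Old cells when the limits were set at 1000 and 50 TPM.

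Slc30a8, the zinc transporter of insulin granules, had a median of 490 TPM in Old Ucn3-high cells (2.75 to 3609) and of 60.5 TPM in Old Ucn3-low cells (0.879 to 704). Its median was 518 TPM in Young Ucn3-high cells (57.5 to 2301) and 277 TPM in Young Ucn3-low cells (3.16 to 1792). The log2 ratio was 1.89 in Old and 0.53 in Young cells, and only the Old one passed 1.5-fold. Within runs it was 0.90 in Old and 0.05 in Young cells. Without cells 40 to 54 the Young log2 ratio was 0.15.

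Iapp, the gene of amylin, which is released with insulin, had a median of 72535 TPM in Old Ucn3-high cells (16881 to 162566) and of 55115 TPM in Old Ucn3-low cells (15212 to 125634). In Young cells the median was 72894 TPM in the Ucn3-high class (19635 to 139997) and 62608 TPM in the Ucn3-low class (1227 to 130721). The value of 1227 TPM was in macrophage-marked cell 72, and the next lowest was 12723 TPM in cell 51. The ranges overlapped almost completely, and the log2 ratios of 0.30 in Old and 0.39 in Young cells were under 1.5-fold. With the limits at 1000 and 50 TPM the Old log2 ratio was -0.13, and without cells 40 to 54 the Young one was 0.15.

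The other members with high levels were an inhibitor of protein phosphatase 1 (Ppp1r1a), the prohormone convertase that begins the cutting of proinsulin (Pcsk1), the prolactin receptor (Prlr) and an oxidase that forms disulfide bonds in the endoplasmic reticulum (Ero1b). Ppp1r1a had medians of 54.6 TPM in Old Ucn3-high and 50.0 TPM in Old Ucn3-low cells, and of 72.3 TPM in Young Ucn3-high and 26.0 TPM in Young Ucn3-low cells, with log2 ratios of 0.66 in Old and 0.61 in Young cells. Pcsk1 had log2 ratios of 0.95 in Old and 0.30 in Young cells, Prlr had 0.96 and 0.50, and Ero1b had 0.80 and 0.35 for the ages in the same order. All of these were positive, and those of Pcsk1, Prlr and Ero1b passed 1.5-fold in Old cells only; whether the ages differ was not tested. Within runs the log2 ratio of Ero1b was 0.02 in Old and 0.06 in Young cells, and that of Pcsk1 was 0.80 and -0.10. In Old cells grouped by detected genes Pcsk1 was lower in Ucn3-high cells (log2 ratio -0.52).

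**Figure D2:**
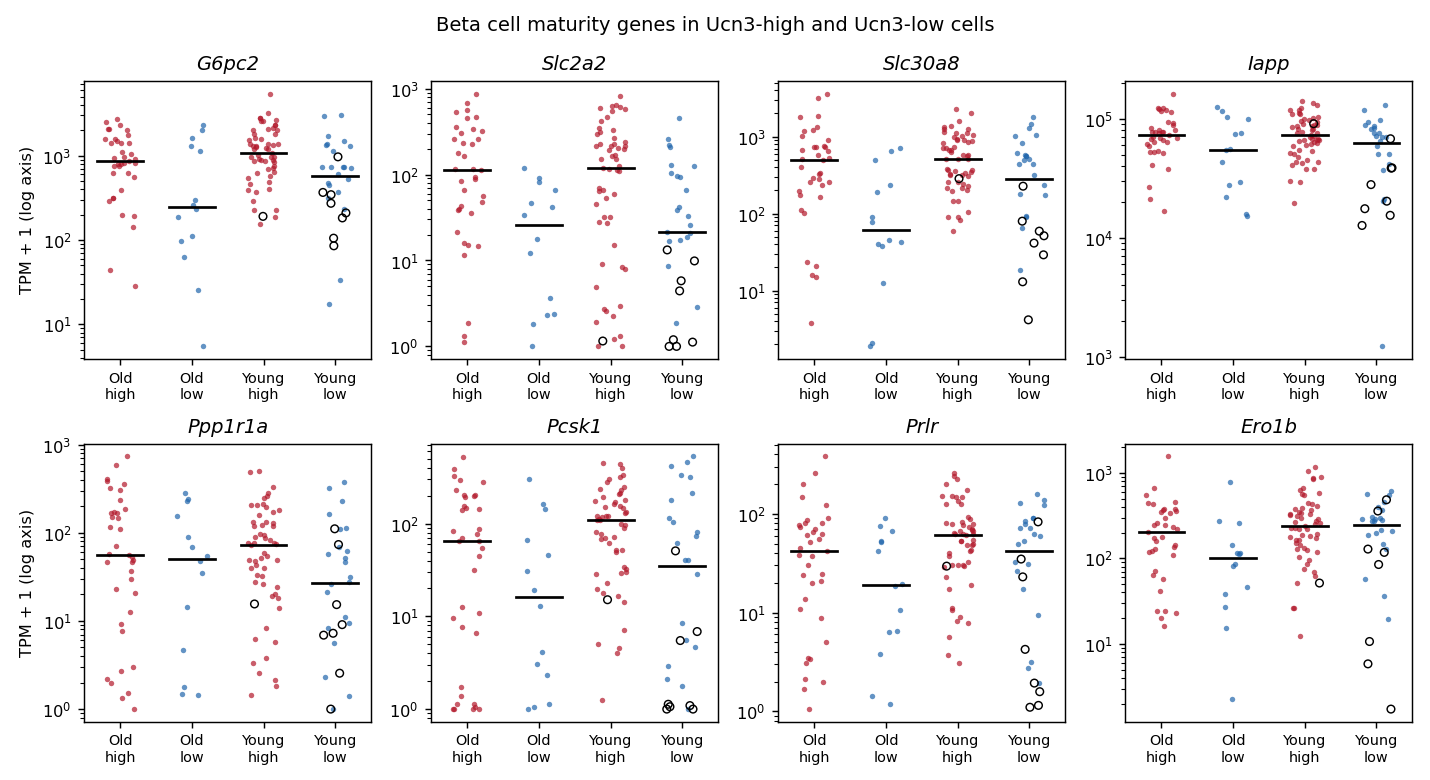
TPM + 1 (log axis) of 8 maturity genes in each Old and Young Ucn3-high (red) and Ucn3-low (blue) cell, with the median as a bar; open circles are cells 40 to 54. The classes overlap for every gene, and Slc2a2 medians are 111 and 24.8 TPM in Old and 119 and 20.4 TPM in Young cells. Most open circles lie among the lowest Young Ucn3-low cells for Slc2a2, Slc30a8 and Iapp.

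Ucn3-low cells were not uniform. Of 8 maturity genes (those just described), 7 of 14 Old Ucn3-low cells were below the lowest Ucn3-high cell of their age for none, 5 for 1 and 2 for 2 or more. Among Young Ucn3-low cells 15 of 30 were below it for none, 8 for 1 and 7 for 2 or more. Of these 7 cells, 6 were among cells 40 to 54 and 2 were macrophage-marked. The lowest Ucn3-high cell was at 0 for Ppp1r1a and Pcsk1 in Old and for Slc2a2 in Young cells, so no cell could lie below it for these. Cells below it for none held each of the 8 genes at or above the level of the lowest Ucn3-high cell. Among them were Old Ucn3-low cell 182, with 4.18 TPM of Ucn3 and 2303 TPM of G6pc2, and Young Ucn3-low cell 28, with 23.4 TPM of Ucn3 and 2994 TPM of G6pc2, named here as the cells of this kind with the most G6pc2. In the intermediate cells, which the classes leave out, Spearman's rho between Ucn3 and G6pc2 was 0.23 over 18 Old and 0.30 over 51 Young cells, and that of Slc2a2 was 0.11 and 0.14; these describe cells that share a total and, in part, a run.

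Other maturity genes had ratios that differed between the ages, which was not tested. Rgs4, a brake on G protein signalling, had log2 ratios of -1.07 in Old and 2.27 in Young cells, and Sytl4, the granuphilin that docks insulin granules, had -0.91 in Old and 0.91 in Young cells. The transcription factor gene Neurod1 had -1.01 in Old and 0.48 in Young cells, and Nkx6-1 had 2.20 and -0.17. Within runs Nkx6-1 had 0.24 in Old and 0.55 in Young cells, and 1 cell with 267 TPM held 53.1% of its total in Old Ucn3-high cells. These genes were low, with medians between 0 and 57.6 TPM in each class. The Old value of Rgs4 turned to 0.62 without the highest cell of each class, and those of Rgs4 and Sytl4 turned to 3.17 and 0.37 without cells 159 to 190. Leaving out cells 159 to 190 keeps 25 Ucn3-high and only 4 Ucn3-low Old cells, here and below. Syt4, a synaptotagmin gene whose protein lowers the calcium sensitivity of release in mouse beta cells, had -0.60 in Old and 0.03 in Young cells, and turned to 0.39 in Old cells without cells 159 to 190. Trpm5, a cation channel gene, had -0.36 in Old and 1.82 in Young cells. The incretin receptor gene Glp1r and the transcription factor gene Pdx1 were higher in Young Ucn3-high cells, with log2 ratios of 2.01 and 1.55, and were under 10 TPM in both Old classes. Cfap126, a gene of planar cell polarity known as Flattop that divides mouse beta cells by maturity, had -0.04 at both ages.

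**Figure D3:**
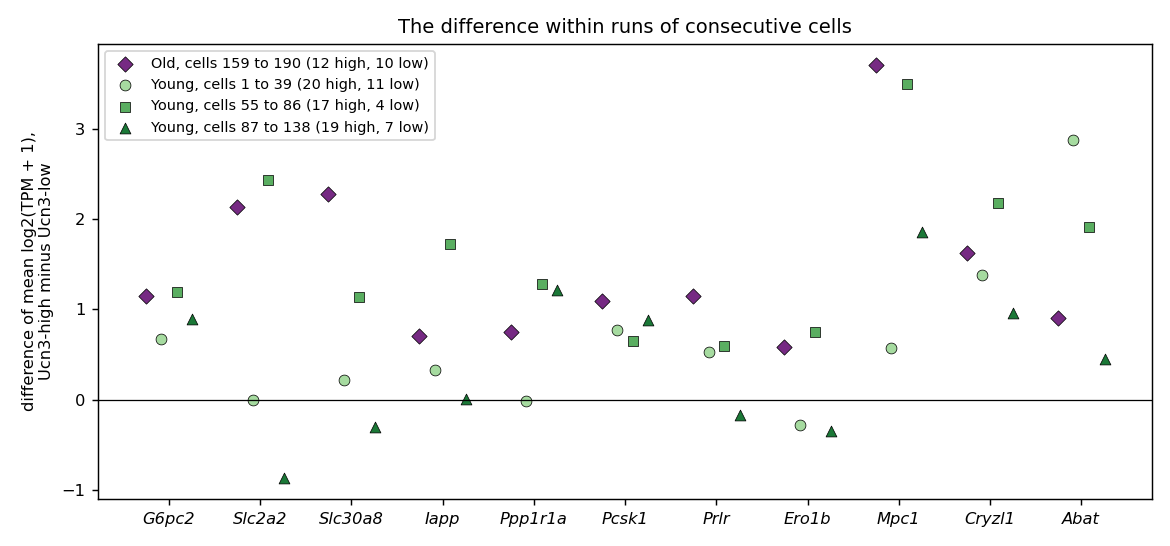
Difference of the mean of log2(TPM + 1), Ucn3-high minus Ucn3-low, for 11 genes within the runs that hold 3 or more cells of each class: Old cells 159 to 190 (12 and 10 cells), and Young cells 1 to 39 (20 and 11), 55 to 86 (17 and 4) and 87 to 138 (19 and 7). G6pc2, Iapp, Pcsk1, Mpc1, Cryzl1 and Abat lie above 0 in every run, Iapp at 0.01 in Young cells 87 to 138. For Mpc1, Cryzl1 and Abat this was in part set by their choice. The rule that named them asked for a within-run average above 0 at each age, which in Old cells is this 1 run. Slc2a2, Slc30a8, Prlr and Ero1b fall below 0 in Young cells 87 to 138. In Young cells 1 to 39, Ero1b (-0.28), Ppp1r1a (-0.02) and Slc2a2 (-0.01) also lie below 0.

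Genes of immature beta cells were seldom measured. Of 18 listed genes, 4 reached the limit of 10 TPM at each age, in part different ones. Of the 4 Young ones 3 were lower in Ucn3-high cells and none higher, with a median log2 ratio of -1.69; of the 4 Old ones 2 were higher and 1 lower, with a median of 1.04. Without macrophage-marked cells the medians were 0.72 in Old and -0.66 in Young cells. The Old median was 0.012 for mean log2 values, -0.91 within bins of detected genes and -0.39 without cells 159 to 190, so its direction was not steady.

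Cd81, a membrane protein gene known as a marker of immature and stressed mouse beta cells, had log2 ratios of 0.05 in Old and -1.82 in Young cells, and of -0.74 and -0.66 without macrophage-marked cells; the highest value in Young Ucn3-low cells, 1379 TPM, was in a marked cell. Pyy, the peptide YY gene, had a mean of 110 ± 353 TPM in Old Ucn3-high and 26.3 ± 49.9 TPM in Old Ucn3-low cells (log2 ratio 2.02), and of 11.1 ± 11.6 TPM in Young Ucn3-high and 34.5 ± 66.9 TPM in Young Ucn3-low cells (log2 ratio -1.55). An Old Ucn3-high cell with 2101 TPM held most of its class, and within runs the Old log2 ratio was 0.16. Nkx2-2, a transcription factor gene, had -0.63 in Old and -0.51 in Young cells, and 0.49 in Old cells with the limits at 1000 and 50 TPM. Npy, the neuropeptide Y gene, was detected in 1 of 37 Old Ucn3-high cells, at 1189 TPM, and in none of 14 Old Ucn3-low cells at TPM 1 or above.

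Transcripts of dividing cells were seen in 2 Young Ucn3-low cells; the cells and the 3 genes named next were chosen after their values had been seen. Cell 122 had 404 TPM of Top2a, 52.1 TPM of Mki67 and 1954 TPM of Stmn1, and cell 8 had 7.10, 11.0 and 1164 TPM of the same genes, which encode topoisomerase, a nuclear protein of cycling cells and stathmin. No other cell of either class or age reached 10 TPM of Top2a or Mki67 (the highest were 3.55 and 0.484 TPM, both in an Old Ucn3-low cell), and 1 Young intermediate cell had 47.2 TPM of Top2a. Both cells carried insulin at 48.7% and 49.3% and G6pc2 at 1367 TPM in cell 8 and 728 TPM in cell 122, and their macrophage marker sums were 12.2 and 5.49 TPM. The 2 of 30 cells stand against 0 of 57 Young Ucn3-high cells, a count that allows a share of up to 5.26% by the same limit. Over the cell cycle list, 2 of 5 Old members were higher and none lower (median log2 ratio 0.52), and 1 of 7 Young members was higher and 4 lower (median -1.09), but the Young median was 0.28 within runs. Pcna, the clamp of DNA polymerase, was at -0.31 in Old and -1.79 in Young cells, and at 0.21 in Young cells without cells 1 to 39.

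Some genes differed in the same direction at both ages. Of 3898 genes measured at both ages, 14.1% were higher and 2.67% lower in Ucn3-high cells of both ages, and 10% were called in opposite directions. The 548 genes higher at both ages were 31.7% of the Old and 51.1% of the Young list, and the 104 lower ones were 20.4% and 18.9%. Over all 3898 genes, 44.3% were higher in Old and 27.5% in Young Ucn3-high cells, and 13.1% and 14.1% were lower. After conditions on the share of cells with the gene, on single high cells and on the direction of mean log2 values within runs, and with no limit on the fold, 435 genes had a higher and 16 a lower mean at both ages. The conditions on the share of cells and on single high cells were applied to the class with the higher mean. For lower genes this class had 14 Old and 30 Young cells, and for higher genes it had 37 and 57. A single cell exceeds 25% of a class more easily when the class is small, so the counts of 435 and 16 are not directly comparable. How far class size set them was not tested. Of the 435, the 12 with the largest ratio upwards were Cryzl1, Abat, T2, Prxl2c, Vipas39, Mpc1, Tmsb15b1, Fbxo6, Chrac1, Idh3a, Slc2a2 and Anxa4.

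Mpc1, a subunit of the carrier that brings pyruvate into mitochondria, ranged from 0 to 619 TPM in Old Ucn3-high cells (median 23.8) and from 0 to 119 TPM in Old Ucn3-low cells (median 0). Young Ucn3-high cells had 0 to 854 TPM (median 23.4) and Young Ucn3-low cells had 0 to 354 TPM (median 1.22). Most Ucn3-low cells held little of it: it was detected in 29 of 37 Old Ucn3-high and 2 of 14 Old Ucn3-low cells, and in 45 of 57 Young Ucn3-high and 16 of 30 Young Ucn3-low cells. Ucn3-low cells also had fewer detected genes, with medians of 3267 against 4361 in Old and 3947.5 against 4304 in Young cells. How far this bears on the counts of Mpc1 was not tested. In cells 40 to 54, the 1 Ucn3-high cell also had 0 TPM of Mpc1. The log2 ratio was 2.44 in Old and 1.64 in Young cells and 3.01 and 2.20 within runs. The rule that named Mpc1 asked for 1 direction of mean log2 values within runs, so this is not a separate check.

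Idh3a, a subunit of the isocitrate dehydrogenase of the citrate cycle, had a mean of 57.4 ± 100 TPM in Old Ucn3-high and 3.06 ± 7.43 TPM in Old Ucn3-low cells, and of 55.6 ± 101 TPM in Young Ucn3-high and 19.5 ± 48.5 TPM in Young Ucn3-low cells. Abat, which breaks down the transmitter GABA that beta cells make, had a mean of 16.3 ± 27.8 TPM in Old Ucn3-high and 2.03 ± 3.99 TPM in Old Ucn3-low cells, and of 47.1 ± 93.3 TPM in Young Ucn3-high and 8.42 ± 18.8 TPM in Young Ucn3-low cells. Cryzl1, a relative of quinone reductases, had the widest ratios, with log2 values of 4.93 in Old and 2.90 in Young cells. For all 12 genes the SD between cells exceeded the mean in each class at both ages.

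The 12 lowest included Rps12l1, Rps15a, Rpl36a, Rpl37a, Rplp1 and Rpl32 of the ribosome and Eif1 of translation initiation, several of them under 1.5-fold. Also among them were the proteasome gene Psmb6, the G protein gene Gnas, the mitochondrial leucine-tRNA synthetase gene Lars2 and the granule membrane protein gene Ptprn. Rplp1, a stalk protein of the ribosome, had a median of 263 TPM in Old Ucn3-high cells (50.2 to 737) and 359 TPM in Old Ucn3-low cells (54.7 to 737), and 279 TPM in Young Ucn3-high cells (35.0 to 958) and 488 TPM in Young Ucn3-low cells (10.7 to 2206). Its log2 ratio was -0.28 in Old and -1.07 in Young cells. Gnas, the stimulatory G protein subunit that raises cyclic AMP, had a mean of 48.2 ± 37.3 TPM in Old Ucn3-high and 111 ± 112 TPM in Old Ucn3-low cells, and of 55.0 ± 53.5 TPM in Young Ucn3-high and 74.1 ± 71.1 TPM in Young Ucn3-low cells, where the medians were 51.4 and 50.0 TPM. Ribosomal protein genes have many near-identical copies, among which the authors' counting may have split reads. Over all cytosolic ribosomal protein genes, 4 of 82 were higher and 14 lower in Old Ucn3-high cells (median log2 ratio -0.22), where 17.5% of all genes were lower, and 1 of 83 was higher and 18 lower in Young Ucn3-high cells (median -0.32), where 20.3% were; without macrophage-marked cells 7 of 82 were higher and 16 lower in Young cells (median -0.10), and the Young medians of single runs were 0.23, -1.16 and 0.03 in cells 1 to 39, 55 to 86 and 87 to 138.

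Gene groups of insulin making and release were next compared by counts, each against the 44.3% higher and 17.5% lower of all Old genes and the 27.4% higher and 20.3% lower of all Young genes. Genes of glucose sensing and excitation were higher for 10 and lower for 2 of 17 Old members (median log2 ratio 0.76), and higher for 10 and lower for 1 of 20 Young members (0.49). Within runs their medians were 0.27 in Old and 0.52 in Young cells. The protein translocon and signal peptide list, whose products thread proinsulin into the endoplasmic reticulum, had 10 of 20 Old members higher and none lower (median 0.56), and 6 of 20 Young members higher and none lower (0.32). Ssr1, a translocon-associated protein gene, had a mean of 103 ± 126 TPM in Old Ucn3-high and 11.5 ± 18.0 TPM in Old Ucn3-low cells, and of 125 ± 123 TPM in Young Ucn3-high and 69.6 ± 81.2 TPM in Young Ucn3-low cells. Within runs the medians of the translocon list were 0.31 in Old and 0.28 in Young cells.

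The proton pump that acidifies granules and lysosomes had 10 of 15 Old members higher and 1 lower (median 0.80), and 3 of 15 Young members higher and none lower (0.23). Its subunit gene Atp6v1g1 had a median of 202 TPM in Old Ucn3-high cells (0.402 to 775) and of 5.62 TPM in Old Ucn3-low cells (0 to 337), and of 255 TPM in Young Ucn3-high cells (0.365 to 974) and 100 TPM in Young Ucn3-low cells (0 to 1272). Exocytosis genes were higher for 8 and lower for 2 of 14 Old members (0.94), and higher for 3 and lower for 1 of 13 Young members (0.31), and their medians within runs were 1.16 and -0.04. Of these Cadps, which primes granules for release, was higher at both ages, with log2 ratios of 1.42 in Old and 1.67 in Young cells. Genes of the granule and of prohormone processing had 8 higher and 5 lower of 26 in Old (0.40) and 3 higher and 2 lower of 25 in Young cells (0.21). Chaperones and the unfolded protein response had 10 higher and 3 lower of 29 in Old (0.43), and 8 higher and 3 lower of 31 in Young cells (0.34). Transcription factors of beta cells had 5 higher and 2 lower of 13 in Old (0.40), and 5 higher and 1 lower of 14 in Young cells (0.41). Within runs the Old and Young medians were 1.00 and 0.13 for the proton pump, 0.03 and 0.09 for granule genes, 0.64 and 0.24 for chaperones, and 0.05 and 0.45 for transcription factors, against 0.27 and 0.16 for all genes.

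Groups of metabolism and mitochondria were compared in the same way. Cholesterol synthesis genes were higher for 6 and lower for 1 of 8 Old members (median 1.56), and higher for 5 and lower for none of 11 Young members (0.57), among them Hmgcs1, which makes the precursor of mevalonate, with log2 ratios of 2.80 in Old and 0.90 in Young cells. Mitochondrial ribosomal protein genes were higher for 31 and lower for 8 of 62 in Old (0.61), and higher for 23 and lower for 10 of 57 in Young cells (0.32); within runs the medians were 0.45 and 0.67 for these ages. Glycolysis and citrate cycle genes were higher for 8 and lower for 4 of 28 in Old (0.18), and higher for 13 and lower for 1 of 32 in Young cells (0.30). Respiratory chain genes of the nucleus had 11 higher and 10 lower of 40 in Old (-0.08) and 9 higher and 3 lower of 40 in Young cells (0.07). The 13 coding genes of the mitochondrial genome had none higher and 2 lower in Old (-0.32) and none of either in Young cells (0.03), and held a median of 10.8% of TPM in Old Ucn3-high and 13.5% in Old Ucn3-low cells, and 8.47% in Young Ucn3-high and 7.90% in Young Ucn3-low cells. Within runs the Old and Young medians were 1.11 and 0.26 for cholesterol synthesis, 0.53 and 0.48 for glycolysis and citrate cycle, 0.15 and 0.23 for nuclear respiratory chain genes, and -0.79 and -0.04 for the mitochondrial coding genes.

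**Figure D4:**
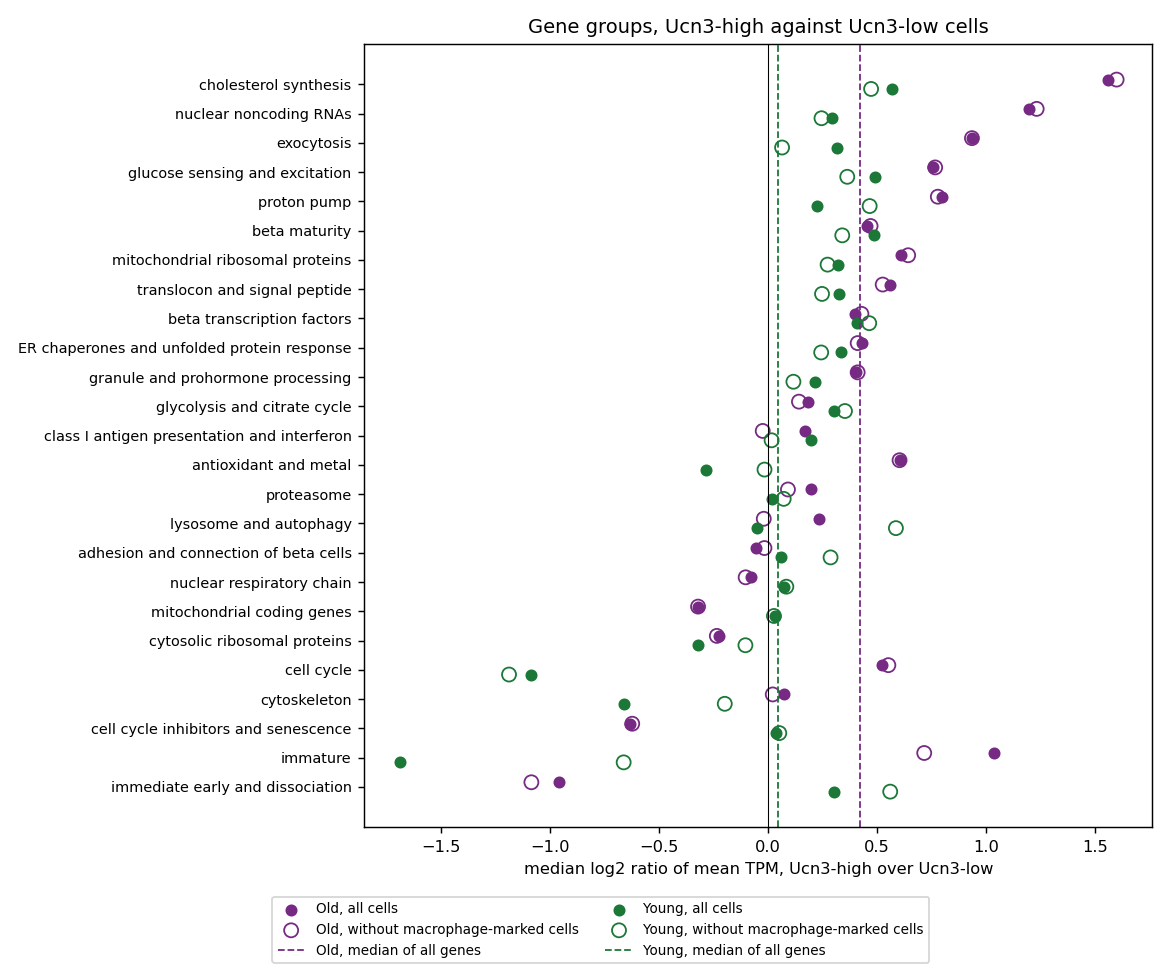
Median log2 ratio of mean TPM, Ucn3-high over Ucn3-low, of each gene group with 4 or more measured members at both ages, for Old (purple) and Young (green) cells; open rings leave out macrophage-marked cells and dashed lines are the medians of all genes, 0.42 in Old and 0.05 in Young cells. The filled points of cholesterol synthesis, exocytosis, glucose sensing and proton pump genes lie right of the line of their age. So do those of translocon, mitochondrial ribosomal protein and nuclear noncoding RNA genes, and of maturity genes and chaperones, which are close to the Old line. The immature and immediate early groups are among those with opposite signs at the ages.

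Immediate early genes, which cells switch on within minutes of stress such as tissue dissociation, had ratios of opposite sign at the ages, a difference that was not tested. In Old cells none of 15 was higher and 9 were lower in Ucn3-high cells (median -0.96), and in Young cells 7 of 19 were higher and none lower (0.30). Within runs the medians were -0.42 in Old and 0.26 in Young cells. Fos, Jun and Egr1 encode transcription factors of this class and were chosen after their values had been seen. Fos had a median of 83.3 TPM in Old Ucn3-high cells (0.507 to 1444) and 176 TPM in Old Ucn3-low cells (0.936 to 679), and of 641 TPM in Young Ucn3-high cells (0.412 to 1765) and 286 TPM in Young Ucn3-low cells (2.31 to 1501). The higher median was thus that of the Ucn3-low class in Old and of the Ucn3-high class in Young cells, and the ranges overlapped. Among Old cells 159 to 190 the mean log2 value of Fos was higher in Ucn3-high cells, by 0.26, and within bins of detected genes its Old log2 ratio was 0.19. Jun had log2 ratios of -0.96 in Old and 1.22 in Young cells, and Egr1 had -0.85 and 0.03. In Young cells the 3 runs disagreed for Egr1 (log2 ratios -0.67, 0.60 and -0.77 in cells 1 to 39, 55 to 86 and 87 to 138), and for Jun (0.92, 0.57 and -0.46).

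In the remaining groups several values depended on the macrophage-marked cells. Antigen presentation genes had 3 higher and 1 lower of 8 in Old (0.17) and 2 higher and 3 lower of 9 in Young cells (0.20); B2m, the light chain of class I molecules, had a Young log2 ratio of -2.90, and of -0.37 without the marked cells. Lysosome and autophagy genes had 8 higher and 2 lower of 20 in Old (0.23) and 3 higher and 3 lower of 20 in Young cells (-0.05), and without the marked cells 9 higher and 1 lower of 18 in Young cells (0.59). Cytoskeleton genes had 4 higher and 1 lower of 14 in Old (0.07) and 1 higher and 5 lower of 15 in Young cells (-0.66), which became 3 higher and 4 lower without the marked cells (-0.20). Antioxidant and metal-binding genes had 12 higher and 4 lower of 24 in Old (0.60) and 5 higher and 5 lower of 23 in Young cells (-0.28), within runs at -0.10 and -0.01, with Txnip, a glucose-induced inhibitor of thioredoxin, at 2.85 in Old and 1.41 in Young cells. Proteasome genes had 10 higher and 6 lower of 34 in Old (0.20) and 9 higher and 4 lower of 35 in Young cells (0.02). Adhesion genes had 1 higher and 1 lower of 8 in Old (-0.05) and 4 higher and 3 lower of 10 in Young cells (0.06), and cell cycle inhibitors had 2 higher and 2 lower of 5 in Old (-0.63) and 3 higher and 2 lower of 6 in Young cells (0.03). Nuclear noncoding RNAs had 4 higher and 2 lower of 8 in Old (1.20) and 1 higher and 1 lower of 6 in Young cells (0.29); Malat1 had log2 ratios of 2.26 in Old and 0.36 in Young cells, which became -0.40 and -0.80 within runs. Of genes that beta cells normally keep silent, 2 of 16 reached 10 TPM in Old cells, 1 of them higher (none without the marked cells), and none did in Young cells, and no other member of the corticotropin-releasing factor family or its receptors did at either age. Within runs the Old and Young medians were 0.62 and 0.40 for antigen presentation, 0.41 and 0.11 for lysosome and autophagy, 0.38 and -0.42 for the cytoskeleton, 0.34 and 0.10 for the proteasome, -0.18 and 0.10 for adhesion, -0.71 and 0.24 for cell cycle inhibitors, and 0.77 and 0.11 for nuclear noncoding RNAs.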

How the data were processed

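The authors deposited a TPM table of 44448 genes for 207 single cells. Per the labels' protocols, cells were captured on the Fluidigm C1, cDNA was made with the SMARTer Ultra Low kit and libraries with Nextera XT. The submitters' processing notes name CASAVA 1.8.2, FastQC and GRCm38 (mm10); the labels and headers name no aligner, counter or annotation. TPM sums to 1000000 per cell, so read depth is unknown. Of the gene names, 39725 matched RefSeq GRCm38.p6, which gave coordinates and promoters. Age came from the labels; classes, lists and members were chosen with earlier results of these data known.

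Means, SDs and log2 ratios (1 TPM added) were computed per class within each age, with no p-value (python 3.11.15, numpy 2.4.6, pandas 2.3.3, scipy 1.17.1, matplotlib 3.10.9), by code tested on simulated data. No doublet caller was run. Runs of cell numbers were found from the data by change points in 4 measures, with at least 8 cells each. Values within runs average runs with 3 or more cells of each class. In Old cells only cells 159 to 190 qualified, with 12 Ucn3-high and 10 Ucn3-low cells.

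Named genes had a mean of 10 TPM in either class and detection in 25% of the higher class at both ages. They kept 1 direction at both ages in the ratio of means, in mean log2 values and in mean log2 values within runs, with no cell holding over 25% of the higher class. The 12 highest and 12 lowest were taken, with the maturity and immature members, and the highest and lowest of other lists. Alternatives changed the scale, the added TPM, the filter, the Ucn3 limits, the total and the cells left out. A few genes are not reported here.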

Additional observations from a re-analysis of the deposited data

Results flagged for a closer look

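In 4 gene groups with 4 or more measured members at both ages, the medians had opposite signs at the ages both for the ratio of means and for mean log2 values, and none of these differences between ages was tested. Other groups had opposite signs for the ratio of means alone. Given as the Old median log2 ratio minus the Young one, the difference was 2.72 for immature genes and 1.61 for cell cycle genes. It was -1.26 for immediate early genes and -0.36 for the coding genes of the mitochondrial genome. Each age is 1 sample, so age cannot be told apart from the chips or animals of its cells. Within runs the cell cycle medians were 0.80 in Old and 0.28 in Young cells and those of the mitochondrial coding genes -0.79 and -0.04, so these groups had 1 sign at both ages there. The immature medians rest on 4 genes at each age, in part different ones.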

How the results depend on the processing

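The median log2 ratio of the maturity list stayed above 0 under every alternative run, from 0.05 to 0.65 in Old and from 0.20 to 0.84 in Young cells. In Old cells this was not particular to the list. There the median of all genes was above 0 too, from 0.08 with no filter to 1.02 without cells 159 to 190. In Young cells the median of all genes ranged from -0.16 without cells 40 to 54 to 0.32 for mean log2 values. The counts of genes depended on the filter and the total. Genes higher in Ucn3-high cells numbered 5655 in Old and 3711 in Young cells with a mean of 1 TPM as limit, 6214 and 4043 with no filter, and 3921 and 3085 after rescaling without insulin, Iapp, Ucn3 and mitochondrial genes, which shifted single genes by a median of -0.10 in Old and 0.04 in Young cells. More genes were compared under these settings: 11208 in Old and 11834 in Young cells, 20903 and 23214, and 8702 and 9239, against 4831 and 5128. Genes lower in them numbered, in the same order, 1819 and 2555, 1954 and 2762, and 1777 and 1846. On the scale of mean log2 values, 476 were lower in Old and 330 in Young cells. Old counts of lower genes were 1444 with Ucn3 limits of 1000 and 50 TPM and 1354 within bins of detected genes. With each run left out in turn, Young counts of lower genes ranged from 915 to 1607, the highest without cells 40 to 54.

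The immature median was the least steady. In Old cells it was -0.91 within bins of detected genes, 0.012 for mean log2 values, 0.21 with no filter, 0.49 within runs, 0.72 without macrophage-marked cells, 1.66 with the limits at 1000 and 50 TPM and 1.72 after rescaling, and from -0.39 (without cells 159 to 190) to 1.44 with a run left out. In Young cells it was -0.78 for mean log2 values, -1.13 with 10 TPM added, -1.25 with a mean of 1 TPM as limit, -0.85 with no filter, -1.26 within runs, -1.20 after rescaling and -0.66 without macrophage-marked cells, and from -1.89 to -1.24 with a run left out. The cause of these shifts was not tested. Leaving out macrophage-marked cells was chosen after seeing the data.

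Of 1194 values of 40 named genes under the alternatives, 92 had the other sign, and for 10 of these the value reported had passed 1.5-fold. In Old cells the 10 included G6pc2 at -0.15 and Nkx2-2 at 0.49 with the limits at 1000 and 50 TPM, Pcsk1 at -0.52 and Npy at -0.055 within bins of detected genes, Malat1 at -0.40 within runs, and Rgs4 at 0.62 without the highest cell of each class. With a run left out, Old values ranged from -1.83 to 3.17 for Rgs4, from -0.99 to 0.37 for Sytl4 and from -0.68 to 0.39 for Syt4, each highest without cells 159 to 190. Pcna in Young cells ranged from -2.46 to 0.21, the highest without cells 1 to 39. No paired analysis was possible because the labels give no number that pairs cells across the classes. TPM holds no depth, so what depth limits could not be measured.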

Other observations

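Intermediate cells, which belong to neither class, also held single cells of other kinds. Young intermediate cell 35, with 452 TPM of Ucn3, had 1678 TPM of Pcna, 274 TPM of Mcm5 and 47.2 TPM of Top2a, and 2031 TPM of Slc2a2 and 3894 TPM of G6pc2. Its Mki67 was listed at 0. Somatostatin reached 1000 TPM in 3 of 18 Old and 0 of 51 Young intermediate cells. Across the intermediate cells Spearman's rho between Ucn3 and the number of detected genes was -0.01 over 18 Old and -0.03 over 51 Young cells. Over all cells of an age it was 0.31 in Old (69 cells) and 0.10 in Young (138 cells). For G6pc2 in place of detected genes it was 0.21 and 0.30 over the same cells.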
